A study of Mus musculus with 6 samples.

Results

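The miRNAs of 2 clusters known from mesenchymal cells, miR-143 with miR-145 and miR-199 with miR-214, were followed in bone marrow-derived macrophages with and without Dicer. The members, chosen by name, were miR-143, miR-145, miR-199a-3p, miR-199a-5p, miR-199b and miR-214, that is 6 of the 596 miRNA assays of a TaqMan RT-PCR panel, and each name matched 1 assay. The KO group held 3 samples from mice of the genotype LysM-Cre/Dicer flox/flox/Apoe-/-, and the WT group 3 samples from LysM-Cre/Dicer wt/wt/Apoe-/- mice. All were male and 6 to 8 weeks old, and both groups thus carried the Cre driver and lacked Apoe. Marrow of the femora was cultured for 7 days with medium conditioned by L929 cells, a mouse fibroblast line that secretes macrophage colony-stimulating factor. LysM-Cre is active in monocytes, macrophages and granulocytes, so other cells of the marrow keep an intact Dicer gene. The panel measured no Dicer mRNA, and the genotypes were not checked at the targeted gene.

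Dicer cuts the precursor hairpin of a miRNA and releases a duplex whose strands, the 5p and the 3p arm, can each become a mature miRNA. miR-143 and miR-145 come from a single primary transcript and are abundant in smooth muscle cells, fibroblasts and pericytes, where miR-145 favours the contractile state of smooth muscle. miR-199a and miR-214 share a long antisense transcript in the gene of dynamin 3 and are known from mesenchyme, fibroblasts and osteoblast precursors. None of these miRNAs is regarded as typical of macrophages, whose best known miRNAs are miR-223 and the products of miR-142. In a bulk sample fewer cells of a type and less RNA per cell cannot be told apart.

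The mature sequences show which products an assay can separate, and they are printed from RefSeq (GRCm38.p6) with the seed, bases 2 to 8, in capitals. RefSeq places miR-199a-3p at chr1:162217883-162217904 on the plus strand (Mir199a-2) and at chr9:21496498-21496519 on the minus strand (Mir199a-1). Its partner arm miR-199a-5p lies at chr1:162217844-162217866 (plus) and chr9:21496537-21496559 (minus), and miR-214, taken as the 3p arm that the older name stands for, at chr1:162223438-162223459 (plus).
miR-199a-3p: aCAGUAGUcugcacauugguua
miR-199a-5p: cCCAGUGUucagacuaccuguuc
miR-214: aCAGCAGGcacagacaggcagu
The 3 seeds differ. Among mouse miRNAs in RefSeq the seed of miR-199a-3p is shared with miR-199b-3p alone, that of miR-214 with miR-761 alone, and that of miR-199a-5p with none. miR-761 was on the panel and was not detected in 5 of the 6 samples.

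The hairpins show why the 3p signal cannot be assigned to a single locus. In the next lines the 3p arm stands in capitals within the hairpins of Mir199a-2 (chr1:162217814-162217923, plus), Mir199a-1 (chr9:21496495-21496564, minus), Mir199b (chr2:32318460-32318569, plus) and Mir214 (chr1:162223368-162223477, plus).
Mir199a-2: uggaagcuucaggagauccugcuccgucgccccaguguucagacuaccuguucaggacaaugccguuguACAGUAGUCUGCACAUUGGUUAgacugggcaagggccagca
Mir199a-1: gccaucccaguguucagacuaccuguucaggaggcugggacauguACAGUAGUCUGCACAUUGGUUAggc
Mir199b: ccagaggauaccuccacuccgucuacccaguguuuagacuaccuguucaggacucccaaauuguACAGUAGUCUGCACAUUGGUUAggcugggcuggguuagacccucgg
Mir214: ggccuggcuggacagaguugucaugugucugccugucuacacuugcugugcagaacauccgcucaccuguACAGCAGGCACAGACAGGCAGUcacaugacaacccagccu
The 3p arms of miR-199a and miR-199b are the same in all 22 of 22 bases, so the miR-199a-3p assay reads all 3 hairpins of the family together. By the RefSeq annotation Mir199a-2 and Mir214 lie within Dnm3os, itself inside Dnm3, while Mir199a-1 lies in Dnm2, Mir199b in Dnm1, and Mir143 and Mir145a both in Carmn. The files do not say which arm the assay named miR-199b detects.

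The start of the transcript that holds Mir199a-2 and Mir214 is shown too, and its bearing on the levels of the members was not tested. It is the Dnm3os promoter window of 300 bases at chr1:162217373-162217672 (plus strand), with matches to the E-box motif CANNTG, which reads the same on both strands, in capitals.
Dnm3os: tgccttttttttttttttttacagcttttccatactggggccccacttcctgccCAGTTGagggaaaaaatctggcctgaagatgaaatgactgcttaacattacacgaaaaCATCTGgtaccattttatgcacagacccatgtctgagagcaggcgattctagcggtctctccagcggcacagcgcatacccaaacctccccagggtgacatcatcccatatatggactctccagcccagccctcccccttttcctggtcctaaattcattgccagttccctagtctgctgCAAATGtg
The window held 3 matches, and at least 1 match was found in 72.3% of the 32851 promoter windows of this length, at least 3 in 17.6%. A match describes the letters only.

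Levels were given as threshold cycles (Ct), which fall by 1 for each doubling of template, with 40 for a well without amplification. A Ct at or above 35 was treated as not detected and set to 35. The log2 level of an assay was the mean Ct of the 5 endogenous small RNA controls of the same block of rows in the same sample minus the Ct of the assay. The mean control Ct lay between 19.3 and 22.8 in KO and between 19.0 and 21.1 in WT samples over both blocks, latest in KO replicate 1. Detected miRNA assays numbered 219, 277 and 290 in KO and 307, 308 and 309 in WT samples. The files hold no read counts, and precision rests on the 3 samples of a group. Before any comparison it has to be said that WT replicate 3 stood apart from WT replicates 1 and 2 in these miRNAs, so differences are given with and without it.

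The pair of miR-143 and miR-145 was readily detected in all 6 cultures. miR-145 had Ct values of 28.0, 25.4 and 23.6 in KO replicates 1, 2 and 3, against 22.6, 22.8 and 27.9 in WT replicates 1, 2 and 3. Relative to the controls its log2 level was -5.12, -5.09 and -4.23 in KO and -1.51, -2.24 and -8.78 in WT samples. WT replicates 1 and 2 were the highest of the 6 samples, WT replicate 3 was the lowest, and the KO samples lay between them. In rank, miR-145 was number 56 of 153, 74 of 179 and 60 of 185 detected assays of its block in KO samples, and 45 of 197, 60 of 191 and 141 of 192 in WT samples.

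miR-143, which leaves the same primary transcript, showed this order as well. Its Ct values were 29.2, 27.2 and 25.5 in KO and 24.2, 24.7 and 29.0 in WT samples. Log2 levels were -6.33, -6.89 and -6.19 in KO samples, against -3.13, -4.15 and -9.92 in WT samples. The groups overlapped, because WT replicate 3 lay below each KO sample. WT replicates 1 and 2 held 111 and 54.6 times the miR-143 of WT replicate 3, and KO replicates 1, 2 and 3 held 12, 8.16 and 13.3 times as much. For miR-145 these ratios to WT replicate 3 were 12.6, 12.9 and 23.4 in KO replicates and 154 and 93.0 in WT replicates 1 and 2. The passenger strand miR-145* did not amplify in any of the 6 samples (Ct 40).

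miR-214, a regulator of osteoblast and fibroblast function, behaved likewise although its gene lies on another chromosome. It had Ct values of 30.4, 26.9 and 24.6 in KO and 24.1, 23.6 and 29.0 in WT samples, which gave log2 levels of -7.56, -6.65 and -5.27 in KO and -3.06, -3.05 and -9.89 in WT samples. Against WT replicate 3 the level was 5.03, 9.43 and 24.5 times higher in KO replicates 1, 2 and 3, and 114 times higher in each of WT replicates 1 and 2. The KO samples again lay between the pair of high WT samples and the low one.

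miR-199a-3p had Ct values of 31.8, 29.0 and 26.8 in KO and 26.2, 26.5 and 29.6 in WT samples. Log2 levels were -8.99, -8.70 and -7.44 in KO samples and -5.12, -5.92 and -10.46 in WT samples. As for miR-145, WT replicates 1 and 2 were highest and WT replicate 3 lowest, with a smaller gap. WT replicates 1 and 2 held 40.4 and 23.2 times the miR-199a-3p of WT replicate 3. KO replicates 1, 2 and 3 held 2.76, 3.39 and 8.07 times the miR-199a-3p of WT replicate 3.

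The opposite arm, miR-199a-5p, was near the limit of detection. It had a Ct of 34.0 in KO replicate 1 and did not amplify in KO replicates 2 and 3, against Ct values of 30.3 and 32 in WT replicates 1 and 2 and no amplification in WT replicate 3. With detection in 1 KO and 2 WT samples it was not tested. Where both arms were measured, the log2 level of the 3p arm was above that of the 5p arm by 2.19 in KO replicate 1 and by 4.16 and 5.56 in WT replicates 1 and 2. Such a difference between assays also holds their unequal efficiencies.

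miR-199b, measured in the other block of rows, was close to the limit in all samples but WT replicate 2. Ct values were 36.0, 35.3 and 34.4 in KO and 34.5, 31.5 and 34.2 in WT samples, so 1 KO sample and 3 WT samples were below Ct 35. Its log2 levels in WT replicates 1, 2 and 3 were -13.39, -12.16 and -15.20, and the only detected KO sample, replicate 3, was at -15.14. The bound of KO replicate 1, -12.86, is above 2 of the WT values because the controls of this sample were late, and it cannot place the sample among them. WT replicate 3 was again the lowest WT sample, and of the 6 members each had its lowest WT level there. Among the 201 assays detected in all 6 samples, WT replicate 3 was the lowest WT sample in 94. It was so in 8 of 12 assays of a list of other mesenchymal miRNAs and in 4 of 7 macrophage and myeloid assays.

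**Figure D1:**
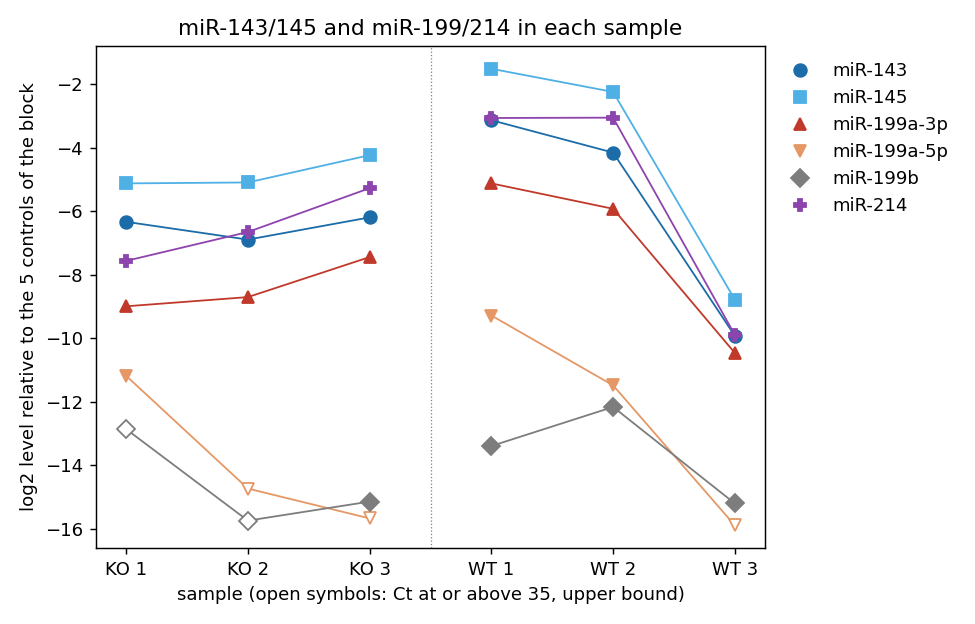
Log2 level of each member relative to the 5 endogenous controls of its block, for the 3 KO samples (left) and the 3 WT samples (right); open symbols mark wells at or above Ct 35, whose level is an upper bound, and lines only join the symbols of a member. miR-143, miR-145, miR-199a-3p and miR-214 are highest in WT replicates 1 and 2 and lowest in WT replicate 3 (-9.92, -8.78, -10.46 and -9.89).

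The spread within WT set these assays apart from most of the panel. Of the 6 members, 4 were detected in all 6 samples, as were 201 assays in all, and the SD over the 3 WT samples had a median of 0.50 and a 95th percentile of 1.91 (log2) over these 201. In WT, miR-145 had an SD of 4.0, miR-214 of 3.95, miR-143 of 3.66 and miR-199a-3p of 2.88, which ranked 1, 2, 3 and 5 from the widest. The KO samples did not spread this way: the SD over KO was 0.51 for miR-145, 1.15 for miR-214, 0.37 for miR-143 and 0.82 for miR-199a-3p, beside a median of 0.83 over the 201 assays. From the widest, the KO SDs ranked 154 of 201 for miR-145, 49 for miR-214, 177 for miR-143 and 103 for miR-199a-3p. WT replicate 3 was only slightly low in general, since the median of its 201 assays lay 0.15 below the WT mean (quartiles -0.50 and 0.12). It was the lowest WT sample in 94 of these assays, against 41 for WT replicate 1 and 66 for WT replicate 2.

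**Figure D2:**
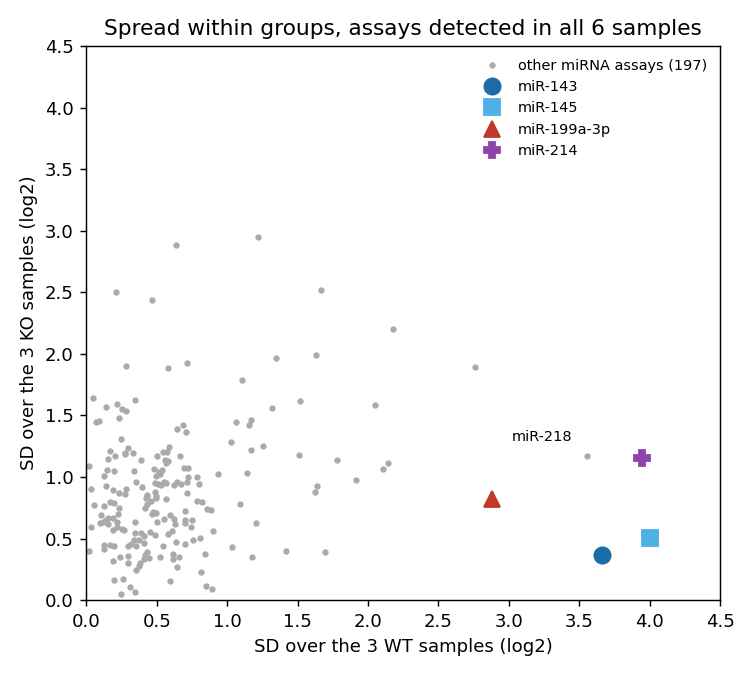
SD over the 3 KO samples (vertical axis, log2) against SD over the 3 WT samples (horizontal axis, log2) for the 201 miRNA assays detected in all 6 samples, with the 4 members among them as large symbols. The members lie at the far right, with WT SDs of 2.88 to 4.0, and at KO SDs of 0.37 to 1.15; miR-218 is the point beside them.

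Within a sample the ratios between members moved less than their levels did. The log2 level of miR-143 minus that of miR-145 was -1.21, -1.80 and -1.96 in KO and -1.62, -1.91 and -1.14 in WT samples, a range of 0.82, while the level of miR-145 alone ranged over 7.27 in WT. Across the clusters, miR-145 exceeded miR-214 by 2.44, 1.56 and 1.05 in KO and 1.55, 0.81 and 1.11 in WT samples, a range of 1.62. For miR-199a-3p minus miR-214, partners on the same transcript, the values were -1.43, -2.04 and -2.17 in KO and -2.07, -2.87 and -0.57 in WT samples. This range of 2.30 lay within the 1.62 to 2.33 of the pairs drawn from different clusters, and the miR-199a-3p assay also reads the hairpins on chromosomes 9 and 2.

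Set against the macrophage miRNAs of the same culture, WT replicate 3 was again lowest for miR-143, miR-145, miR-199a-3p and miR-214. Against miR-142-3p, KO replicates 1 and 2 lay below WT replicates 1 and 2 for each of these members. Only KO replicate 3 lay above 1 or both of those WT samples there. miR-223 itself had log2 levels of 2.41, 3.38 and 2.40 in KO and 4.58, 5.27 and 4.06 in WT samples, and miR-142-3p had -0.11, -0.13 and -0.42 in KO and 1.92, 1.68 and 1.40 in WT samples. Both macrophage markers were thus abundant in every culture, and neither left WT replicate 3 far from the other WT samples. Both were themselves lower in KO, with differences of -1.89 ± 0.47 for miR-142-3p (SE, limma, adjusted p = 0.0321) and -1.91 ± 0.58 for miR-223 (limma, adjusted p = 0.0445). A member's difference from such a marker is therefore raised in KO samples, and it does not give an amount per macrophage. The log2 difference of miR-145 from miR-142-3p was -5.01, -4.96 and -3.81 in KO and -3.43, -3.92 and -10.17 in WT samples. That of miR-214 was -7.45, -6.52 and -4.86 in KO and -4.98, -4.73 and -11.29 in WT samples. KO replicate 3 thus lay above WT replicate 2 for miR-145 and above WT replicate 1 for miR-214. Against miR-223, miR-143 was at -8.75, -10.27 and -8.59 in KO and -7.71, -9.42 and -13.98 in WT samples. The level of miR-145 and miR-214 relative to miR-142-3p was nearer between the KO samples and WT replicates 1 and 2 than between these and WT replicate 3.

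A similar picture came from setting each member against the median of the 201 assays of its own sample. This median level was -6.85, -5.62 and -5.51 in KO and -3.96, -4.15 and -4.30 in WT samples. Relative to the median level of its sample, miR-145 was at 1.72, 0.53 and 1.29 in KO and at 2.45, 1.91 and -4.48 in WT samples. miR-143 was at 0.51, -1.27 and -0.68 in KO and 0.83, 0.00 and -5.62 in WT samples. On this scale the KO values of miR-145 lay below WT replicates 1 and 2 by less than 2 units of log2 and well above WT replicate 3.

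The comparison of KO with WT asks how far mature miRNAs depend on Dicer in these cultures. None of the 5 tested members passed the test (limma, Benjamini-Hochberg adjusted p under 0.05 over 282 tested assays), whereas 37.2% of all tested assays were lower and 0.355% higher in KO. At an unadjusted p under 0.05 there were likewise 0 of 5 members, against 152 of 282 assays. miR-145 averaged -4.81 ± 0.51 in KO and -4.18 ± 4.0 in WT (SD, n = 3 each), a difference of -0.64 ± 1.83 (SE) with a 95% interval from -4.99 to 3.72 (limma, adjusted p = 0.804). miR-143 averaged -6.47 ± 0.37 in KO and -5.73 ± 3.66 in WT, and differed by -0.74 ± 1.68 (interval -4.74 to 3.26, limma, adjusted p = 0.752). These intervals are wide enough to hold both a strong fall and a rise.

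In the other cluster, miR-214 averaged -6.50 ± 1.15 in KO and -5.33 ± 3.95 in WT, with a difference of -1.16 ± 1.87 (SE; interval -5.60 to 3.27, limma, adjusted p = 0.64). miR-199a-3p averaged -8.38 ± 0.82 in KO and -7.17 ± 2.88 in WT and differed by -1.21 ± 1.39 (interval -4.52 to 2.10, limma, adjusted p = 0.517). For miR-199b the difference was -1.0 ± 1.05 (limma, adjusted p = 0.475), a value that rests on 2 KO samples at the ceiling. The 5 differences had a median of -1.0, beside -1.91 for all tested assays. Over the tested assays the 3 KO samples were each lower than any WT sample in 59.9% and each higher in 1.06%, and this held for 0 of the 5 tested members.

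Without WT replicate 3 the picture differed in size. This sample was singled out by the members' own low levels, so its removal enlarges the fall and narrows the WT spread, and only WT replicates 1 and 2 remained. The difference of KO from the remaining WT samples was then -2.83 ± 0.72 for miR-143, -2.94 ± 0.72 for miR-145, -2.86 ± 0.79 for miR-199a-3p and -3.44 ± 0.87 for miR-214 (SE), or 7.12-fold, 7.67-fold, 7.24-fold and 10.9-fold lower in KO. All 4 had a limma adjusted p of 0.0733 and unadjusted p values of 0.00537 to 0.00988, so 0 members passed; in this smaller set of samples 0.687% of 291 assays passed as lower and 0.344% as higher in KO, and 39.5% were lower at an adjusted p under 0.1. The median over the 6 members tested without this sample was -2.90, beside -2.06 over all 291. miR-199a-5p, which met the filter on detection in this set, was at -3.48 ± 1.47 (limma, adjusted p = 0.115) with 2 KO samples at the ceiling; with all 6 samples and no filter it was at -1.64 ± 1.73 (limma, adjusted p = 0.772).

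Leaving out either of the other WT samples moved the differences the opposite way. Without WT replicate 1 they were 0.56 for miR-143 and 0.69 for miR-145, and without WT replicate 2 they were 0.05 and 0.33, with limma adjusted p values of 0.784 to 0.991. For miR-214 they were -0.03 and -0.02. Leaving out a KO sample kept the 5 tested differences below 0 but moved their size: miR-143 lay between -0.88 and -0.53, and miR-145 between -0.93 and -0.48. miR-214 was at -1.77 without KO replicate 3 and at -0.63 without KO replicate 1, miR-199a-3p was at -1.68 without KO replicate 3, and miR-199b was at -1.86 without KO replicate 1 and at -0.42 without KO replicate 2.

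**Figure D3:**
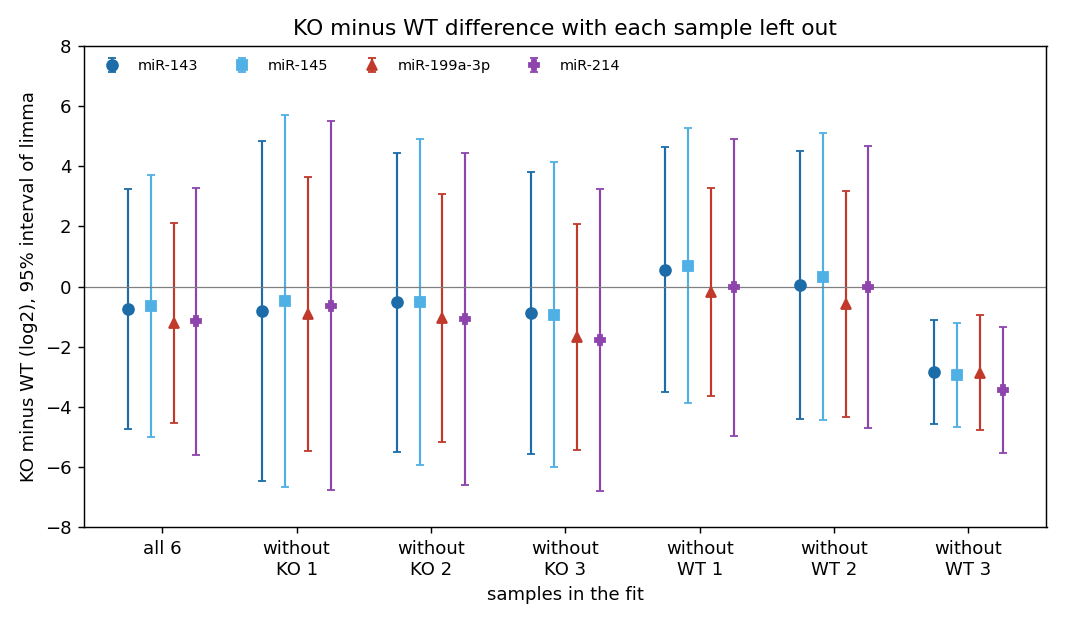
KO minus WT difference in log2 level for miR-143, miR-145, miR-199a-3p and miR-214 with all 6 samples and with each sample left out in turn; symbols are the fitted differences and bars the 95% intervals of limma. The intervals include 0 in each fit except that without WT replicate 3, where the differences run from -3.44 to -2.83. That sample was singled out by the low levels of these same members.

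The scale of averaging matters with so wide a spread. In the authors' deposited table the fold of KO over WT was 0.208 for miR-143, 0.202 for miR-145, 0.224 for miR-199a-3p, 0.24 for miR-199a-5p, 0.302 for miR-199b and 0.173 for miR-214. That table divides arithmetic means, which WT replicates 1 and 2 dominate: the relative quantities of miR-145 in the authors' deposited table were 0.578, 0.553 and 0.961 in KO and 6.58, 3.72 and 0.0409 in WT samples. On the log2 scale of the tests, where each sample weighs equally, the fold of miR-145 was 0.642 and that of miR-143 was 0.599. The reference differed too: the tests used 5 controls, and the deposited quantities were recomputed with U6, snoRNA135 and snoRNA202 alone. In log2 of the deposited quantities the KO minus WT difference was -0.57 for miR-145 and -0.67 for miR-143. The deposited fold of miR-199a-5p includes wells without amplification entered as Ct 40.

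Other miRNAs linked to mesenchyme were examined in a list of 12 names, of which 11 were on the panel in 12 assays, with miR-10b in both blocks. Of 10 tested, 6 fell in KO and 0 rose, where 37.2% of all tested assays fell and 0.355% rose, and the median was -2.09, beside -1.91 for all tested assays. miR-10b, which lies in a Hox gene cluster, fell most in the first block (-3.91 ± 0.75, SE, with KO replicate 1 at the ceiling; limma, adjusted p = 0.0311), followed by miR-497 of the miR-15/16 seed family (-2.98 ± 0.68; limma, adjusted p = 0.0312). At the other end miR-125b-5p was at -1.22 ± 0.59 (limma, adjusted p = 0.128) and miR-218, a miRNA encoded in the Slit genes, at -1.23 ± 1.71 (limma, adjusted p = 0.603). The count of 6 was 0 without KO replicate 2 or without any 1 of the WT samples, where few assays of the whole panel passed.

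The list split by how it varied within WT, and 3 of its 12 assays exceeded the 95th percentile of WT SD. miR-218 had log2 levels of -11.80, -10.67 and -9.46 in KO and -6.85, -7.93 and -13.47 in WT samples. miR-34c, a target of p53, had -10.71 and -11.15 in KO replicates 2 and 3, was not detected in KO replicate 1, and had -7.18, -7.70 and -12.05 in WT samples. miR-127 of the imprinted Dlk1-Dio3 domain was detected at Ct 29.6 and 32.2 in WT replicates 1 and 2 and not in WT replicate 3, and in KO only in replicate 3 (Ct 33.6). miR-34c, miR-127, miR-152 and miR-133a were named after their values were seen. In these 3 assays WT replicate 3 was low as in the members, whereas the remaining 9 had WT SDs no wider than 1.91. miR-152, for example, was at -7.79, -6.47 and -6.09 in KO and -3.96, -4.21 and -3.84 in WT samples.

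**Figure D4:**
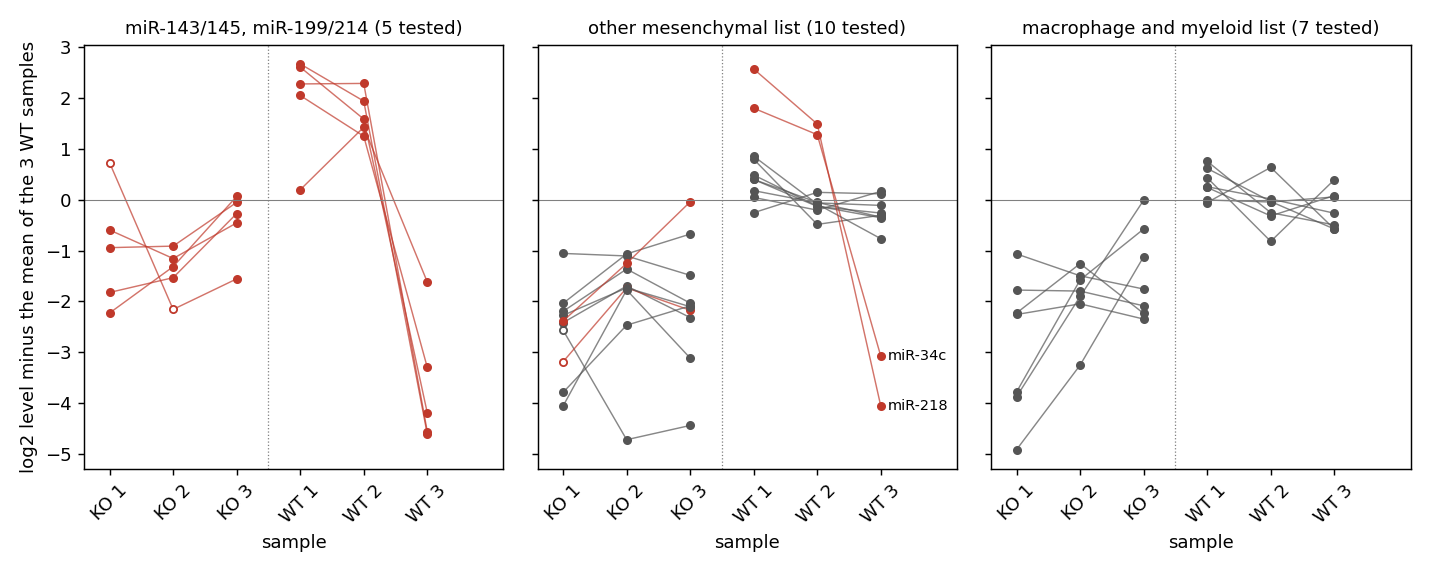
Log2 level of each tested assay minus its mean over the 3 WT samples, by sample, for the members (left), the other mesenchymal list (middle) and the macrophage and myeloid list (right); open symbols mark wells at or above Ct 35. WT replicate 3 lies below the other WT samples in the members and, by a wide margin, in miR-218 and miR-34c. It is also the lowest WT sample in other assays, among them 4 of 7 of the macrophage list, whose WT SDs are 0.05 to 0.71.

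Markers of further cell types were compared by list. Summed over the list on the linear scale, the members had log2 totals of -4.36, -4.32 and -3.34 in KO and -0.70, -1.30 and -7.61 in WT samples. The 7 macrophage and myeloid assays totalled 3.00, 3.86 and 3.42 in KO and 5.44, 5.74 and 4.88 in WT samples. Endothelial miR-126-3p and miR-126-5p together came to -11.14, -7.92 and -7.24 in KO and -7.06, -6.23 and -7.06 in WT samples, and the 7 epithelial assays to values from -5.49 to -4.22 in KO and from -3.12 to -2.90 in WT samples. Neither total set WT replicate 3 apart. The 12 other mesenchymal assays totalled 1.45, 0.96 and 0.75 in WT replicates 1, 2 and 3, and -0.39 or lower in KO samples. In this total WT replicate 3 was the lowest WT sample without a wide gap, although miR-218, miR-34c and miR-127 were low there. In the striated muscle list miR-1, miR-133b and miR-208 did not amplify in any sample, and miR-133a was detected in KO replicate 1 and WT replicate 1 only, at Ct 34.4 and 32. Among the lists 4 of 7 macrophage assays fell, as did 1 of 6 epithelial and 0 of 2 endothelial ones, beside 37.2% of all tested assays. The macrophage and the epithelial count were both 0 without KO replicate 2 or without any 1 of the WT samples, and without KO replicate 1 the macrophage count was 2. The epithelial count was 2 without KO replicate 1 or 3. Of the remaining lists, lymphocyte miR-150, at -1.19, did not pass, and erythroid miR-451 was not tested. The values of miR-1, miR-100, miR-21 and the second miR-10b assay are unsettled, since the authors' tables pair these names with different values, and the part of any other cell type in the members' values was not tested.

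The assays most like the members over the 6 samples were sought among the 201 detected in all, by the root mean square difference of log2 levels centred on the WT mean. For miR-143 the nearest was miR-145 (0.33), followed by miR-199a-3p (0.70) and miR-218 (0.75), beside a median distance of 2.32 to the other 200 assays. For miR-145 they were miR-143 (0.33), miR-214 (0.59) and miR-218 (0.67). miR-214 was nearest to miR-218 (0.41), then to miR-145 (0.59) and miR-199a-3p (0.71). miR-199a-3p had miR-218 (0.48), miR-193b (0.64) and miR-143 (0.70) as its neighbours. Only miR-218 and miR-193b thus came from outside the members, and miR-193b had log2 levels of -10.04, -9.62 and -7.93 in KO and -6.05, -6.23 and -9.85 in WT samples.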

How the data were processed

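MiRNAs were measured by TaqMan RT-PCR in 3 KO and 3 WT samples; RNA extraction used a mirVana kit, followed by reverse transcription and preamplification, per the labels' protocols. The authors deposited Ct scores (608 rows), relative quantities as a ratio to WT, and a fold per miRNA; the sources used here do not give instrument or software. The deposited ratio was recomputed from Ct within 0.01 (log2) in 563 of 596 rows, including all 6 members; in the other 33 rows the deposited tables pair names with different values. Of the listed assays 4 are among them (miR-1, miR-100, miR-21 and the second-block miR-10b). The Ct table was used, and which table is right was not settled.

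Levels were scaled to the 5 controls of the block after a ceiling of Ct 35. An assay was tested if below Ct 35 in all samples of at least 1 group (282 of 596). The genotype difference was fitted in R 4.3.3 by limma 3.58.1 (lmFit, eBayes, two-sided, genotype alone, Benjamini-Hochberg over all tested assays), tested on simulated data. Sequences came from RefSeq, mature for 3 members. Members and lists were chosen with earlier results of these data known. Named were the members, other arms, the extremes of the other mesenchymal list, 2 macrophage markers and the 3 most alike assays of each member. The extremes of the macrophage and epithelial lists were not all named. Deviations from group means correlated weakly between samples of equal number (r = 0.23, 0.28 and 0.27 across assays). A pairing by number thus rests on these data, not the design. The numbers were treated as pairs only in the alternative fit with the replicate block. The labels call the samples biological replicates. Python 3.11.15, pandas 2.3.3 and matplotlib 3.10.9 were also used.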

Additional observations from a re-analysis of the deposited data

How the results depend on the processing

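The members' calls did not change: 0 passed in each of the 12 alternative settings and the 6 fits without 1 sample. With the replicate block the adjusted p values of the members ran from 0.442 (miR-199b) to 0.79 (miR-145), and the block changed no call among them. With the global mean as reference, which removes the common fall, the differences turned to 1.15 (miR-143), 1.25 (miR-145), 0.68 (miR-199a-3p) and 0.72 (miR-214). That of miR-199b stayed below 0, at -0.35. The members' median was 0.72 in this setting, beside -0.20 for all assays. Over the fits without 1 sample the ranges were -2.83 to 0.56 for miR-143, -2.94 to 0.69 for miR-145, -2.86 to -0.19 for miR-199a-3p, -1.86 to -0.28 for miR-199b and -3.44 to -0.02 for miR-214, and the members' median ran from -2.90 to -0.02. The number past the threshold among all assays, 106, was 3 with the global mean, 2 without a reference, 3 without a filter and 3 to 115 without 1 sample. Few samples and, for miR-199b and miR-199a-5p, Ct values near 35 limit what can be detected.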

Other observations

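Outside the members and the lists, miR-31 and its passenger strand miR-31* also stood low in WT replicate 3; they were picked out after their values were seen. miR-31 had log2 levels of -9.87 and -8.06 in KO replicates 2 and 3, was not detected in KO replicate 1, and had -7.63, -6.46 and -13.20 in WT samples. miR-31* had -11.56 and -9.94 in KO replicates 2 and 3, was not detected in KO replicate 1, and had -7.65, -7.80 and -15.04 in WT samples. In the fits KO replicate 1 was set to the ceiling for both strands. Their WT SDs of 3.61 and 4.22 ranked 7 and 3 among the 282 tested assays, beside 4 for miR-145, 5 for miR-214 and 6 for miR-143. The KO minus WT differences were -0.93 ± 1.88 for miR-31 (SE; limma, adjusted p = 0.717) and -1.29 ± 2.02 for miR-31* (limma, adjusted p = 0.63), so neither passed. A smaller drop in WT replicate 3 was seen for miR-130a and miR-34b-3p, likewise picked out after their values were seen. miR-130a was at -8.18, -7.56 and -7.46 in KO and -4.62, -5.72 and -7.94 in WT samples. For miR-34b-3p the levels were -9.13, -7.70 and -7.39 in KO and -5.47, -4.66 and -7.81 in WT samples. Other assays with a wide WT spread were highest in WT replicate 3. Among them were miR-467F (0.81, -3.75 and 1.22 in WT samples) and miR-467b of the second block (-9.81, -10.15 and -6.22). The authors' tables pair both of these names with different values.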
